A study of Mus musculus with 8 samples.

Results

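In the polyadenylated RNA of mouse liver, 1603 pairs of splice junctions shared one end of an intron while their other ends lay 3 to 12 bases apart. Such a pair is a tandem splice site: 2 acceptors (the 3′ ends of introns) or 2 donors (the 5′ ends) so close together that the choice between them adds or removes only a few bases of the exon. The pairs were taken from all junctions seen in 8 libraries, with at least 40 reads in the pair and at least 5 in the junction with fewer reads, here called the lesser junction. They were 1603 of the 15225 pairs of junctions, at any distance, that shared an end and passed the same read minimums. Because read counts chose the pairs, the counts and shares summed over the libraries are given as a description, with no test. The course of the shares over time was not used in the choice and was tested.

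The RNA came from livers of wild-type C57/BL6 mice kept in complete darkness and collected every 6 h from CT23 to CT65, where CT (circadian time) counts hours of the internal clock. The first day of collection was CT23, CT29, CT35 and CT41, and the second was CT47, CT53, CT59 and CT65. Before collection the mice had been held in 12 h of light and 12 h of darkness for a week and then in darkness for 1 day. Each time was 1 library made from the pooled RNA of 3 animals, so no time had a replicate, and the sex and age of the animals are not stated. The 4 clock phases (CT23, CT5, CT11 and CT17) were each collected on both days. In such bulk RNA, fewer cells of a type and less RNA per cell cannot be told apart. The label of the tissue was checked against cell type markers: the hepatocyte genes Alb and Apoa1 averaged 35072 and 10020 RPKM (reads per kilobase of transcript, scaled to library size, a unit inferred from the values), while markers of Kupffer, endothelial, stellate and bile duct cells averaged at most 41.1 RPKM (Clec4f). Junction reads numbered 5270743 to 6227130 in 7 libraries and 14749911 in CT35, which makes CT35 the most precise single library.

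The spliceosome recognises an acceptor through the pyrimidine tract bound by U2AF and the AG dinucleotide that closes the intron, and a donor through base pairing of the GT region with U1 and then U6 small nuclear RNA. Where 2 AG dinucleotides stand 3 bases apart (the NAGNAG motif), either can be used in the second step of splicing, and the mRNA gains or loses 1 codon. A distance that is a multiple of 3 keeps the reading frame and is called in-frame, while any other distance in coding sequence shifts it, and frame-shifted mRNAs are known targets of nonsense-mediated decay. In untranslated regions (UTRs) the words describe the distance alone, since no reading frame is at stake there.

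The pairs that carry most of the values below have the following exon sequences at the splice site, each read on the transcript strand with 9 bases on either side. Capitals mark the bases between the 2 sites, which are in the mRNA when the site for the longer exon is used and missing when the other is used. The first lines are acceptors 3 bases apart, shown because they were the most frequent class.
Apoa2, acceptors 3 apart: acagaatcgCAGcactgttcc
Itih4, acceptors 3 apart: cctccgttgCAGcacaatatc
Rarres2, acceptors 3 apart: gggcctcagCAGgatcctcag
Abcc3, acceptors 3 apart: accatgaagCAGccttgcaaa
Mlxipl, acceptors 3 apart: gagtccccgCAGgatacagtt
Gspt1, acceptors 3 apart: aacctgttgTAGaaaatggag
Rbm8a, acceptors 3 apart: ttggctccgAAGaggggtccc
Cfi, acceptors 3 apart: gttgtgaagAAGaccgacagc
The next lines are acceptors at larger distances with many lesser reads for their class, 3 of them in-frame and 2 in a 5′ UTR at an out-of-frame distance (Acy1 and Sirt3).
Acy1, acceptors 4 apart: gagagcaagCCAGcacgcggcg
Sirt3, acceptors 8 apart: gtccgggagTGTTACAGgtgggagaa
Apoa2, acceptors 12 apart: acagaatcgCACTGTTCCTAGgccatagtc
Pcbp2, acceptors 12 apart: atgttggagACTCTCTCCCAGtcccccccg
Gtf2i, acceptors 12 apart: gccctccaaTTTTCCTTTCAGgaaagataa
The last lines are donors, among them the pairs that limma called for a 24-h component (Slc29a1 and Entpd8).
Slc29a1, donors 6 apart: atctcataaGTAAAGgagaggagc
Nr1h4, donors 12 apart: tggctgaatGTATGTATACAGgtttgttaa
U2af2, donors 12 apart: gccacgctgGTGAGCCTCCCGagcaccatc
Entpd8, donors 4 apart: acaggacagGTTGagcagccag
C1s1, donors 5 apart: ccatgtacaGTAAGgtgacactg
In every acceptor line the capitals end in AG, and in every donor line they begin with GT. Over all pairs the bases between the sites could be read from GENCODE M21 transcripts (GRCm38) for 1211 of 1603. They ended in AG in 910 of 913 acceptor pairs, and among 298 donor pairs they began with GT in 261 and with GC in 37.

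Acceptors outnumbered donors. Of the 1603 pairs, 1103 were acceptors, 465 were donors, and for 35 no single strand could be assigned. The distance of 3 bases was the most frequent, with 626 acceptor pairs but 41 donor pairs. Among donors the most frequent distance was 4 bases, with 121 pairs, followed by 6 bases with 65 pairs. Acceptors 4 bases apart made up 160 pairs and acceptors 5 bases apart 99 pairs. Just outside the chosen range, 56 pairs lay 2 bases apart and 37 lay 13 bases apart. At larger distances, 71 pairs lay 15, 81 lay 18 and 81 lay 21 bases apart, more than the 42 pairs at 7 bases. The median share of the lesser junction was 14.5% at 3 bases and 5.998% at 12 bases, beside 1.76% at 2 bases and 2.45% at 13 bases just outside the range. Pairs just over the minimum of total reads (40 to 44) numbered 52, with a median share of 21.7%, and 46 pairs with 35 to 39 reads had 28.6%. Pairs with exactly 5 lesser reads numbered 188, with a median of 1.59%, and 238 pairs with 4 lesser reads had 1.27%.

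**Figure D1:**
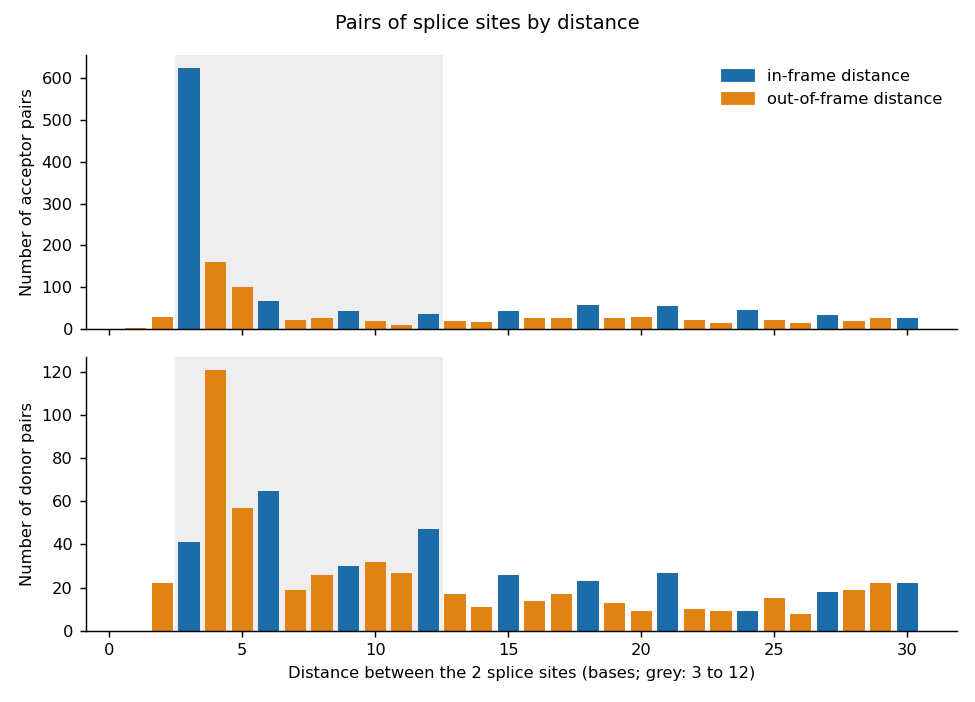
Number of junction pairs (vertical axis) by the distance between their 2 splice sites in bases (horizontal axis, 1 to 30), for acceptors above and donors below, with in-frame distances in blue and out-of-frame distances in orange. The grey band holds the distances of 3 to 12 bases; the bar of 626 acceptor pairs at 3 bases and the bar of 121 donor pairs at 4 bases stand out.

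The pairs were spread over many genes. A single gene symbol could be given to 1525 pairs in 1162 genes, and 252 genes held 2 or more. Mlxipl, which encodes the carbohydrate-responsive transcription factor ChREBP, held 9 pairs, and Alb (serum albumin) held 8. C3 (complement component 3), Inmt (a methyltransferase) and Sema4g (a semaphorin) held 6 each. Pairs were not all separate, since 73 of their 3126 junctions belonged to more than 1 pair. Both junctions were introns of the deposited transcript models in 609 pairs, and in 913 only the greater was.

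How evenly the 2 sites were used differed widely between pairs. The lesser junction held under 0.1% of the reads in 93 pairs, and in 1 of these it was annotated. It held 25 to 50% in 312 pairs, and in 78.5% of these it was annotated. The depth of the greater junction moves with this scale, from a median of 30191 reads in the lowest class to 66.5 reads in the highest. A pair with few reads needs a high share to reach 5 lesser reads. The part of the read minimum in this order was not tested.

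At acceptors the site nearer the branch point, which gives the longer exon, was usually the greater one. It held more reads in 822 of 1103 acceptor pairs (74.5%), in 143 of 160 pairs 4 bases apart and in 91 of 99 pairs 5 bases apart. At 3 bases it held more reads in 444 of 626 pairs, and its median share was 78.5%. At 12 bases the numbers were 18 and 17. Donors showed no such order: the site for the longer exon was the greater one in 215 of 465 pairs (46.2%).

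**Figure D2:**
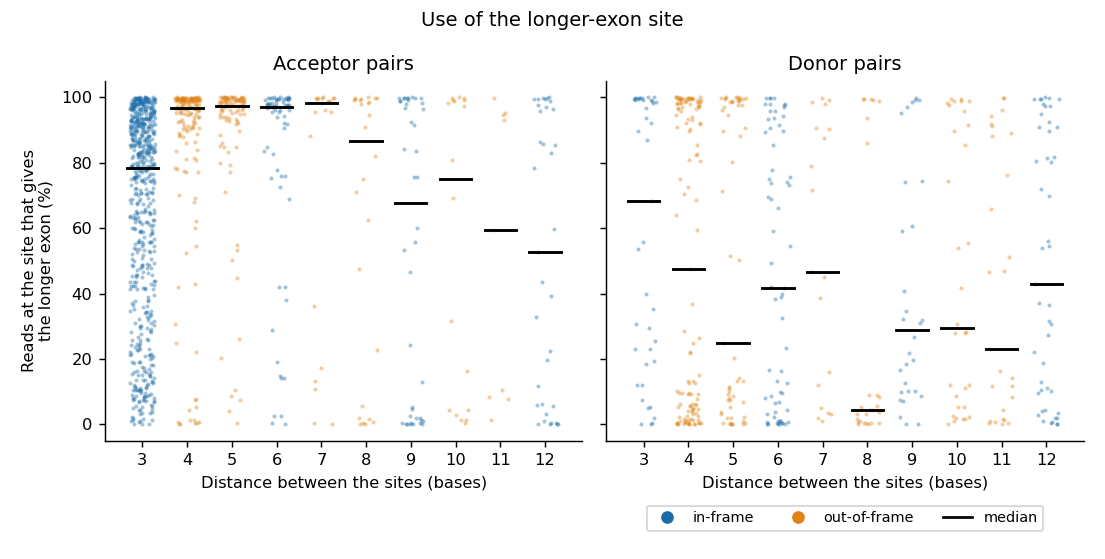
Share of the reads of a pair at the site that gives the longer exon (vertical axis, percent, 8 libraries summed) by the distance between the sites in bases (horizontal axis), 1 point per pair, acceptors left and donors right, with black bars for medians. Acceptor pairs 4 bases apart crowd near the top with a median of 96.7%, while donor pairs 4 bases apart lie at both ends around a median of 47.6%.

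In acceptors 3 bases apart, the 3 bases between the sites are those that end at the downstream cut, so that they name the downstream acceptor. Among the 626 pairs of this class, they were CAG in 344, AAG in 111, TAG in 55, GAG in 26 and CTG in 2. For the others the bases could not be read. Reading them needed a transcript with the longer exon, so the readable pairs need not stand for the class. The median share of the upstream site was 75.4% where the downstream acceptor was CAG, 72.2% for TAG, 94.9% for AAG and 99.2% for GAG. Both sites held at least 10% of the reads in 77.6% of the CAG pairs and 74.5% of the TAG pairs, against 28.8% of the AAG pairs and 11.5% of the GAG pairs. Among the readable pairs, a lesser site was thus better used where the downstream acceptor was CAG or TAG. Median depth also differed, with 134 reads for CAG pairs and 1484 for GAG pairs. A deep pair enters with a smaller share, and the part of depth was not tested. In donors 4 bases apart, the longer-exon site had a median share of 89.7% in 51 pairs whose bases began with GT and 98.6% in 24 pairs that began with GC. The bases could not be read for the other pairs of this class, and over all 121 the median was 47.6%, so the readable pairs do not stand for the class.

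In-frame pairs made up 967 of the 1603 (60.3%) and out-of-frame pairs 636, where 4 of the 10 distances are in-frame. Acceptors 3 bases apart were 626 of the in-frame pairs. Without that class, 341 in-frame and 636 out-of-frame pairs were left, and in coding sequence 285 and 455. The percentages that follow include that class. Of the acceptors 69.8% were in-frame, and of the donors 39.4%. In coding sequence 73.1% of 911 acceptor pairs were in-frame, in 5′ UTRs 49.4% of 85 were, and in 3′ UTRs 63.6% of 22 were. At 13 to 30 bases, where 6 of 18 distances are in-frame, 390 of 822 pairs were in-frame (47.4%). These are counts of pairs that passed the read minimums.

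The difference in median lesser share between in-frame and out-of-frame pairs depended on depth. These values were used in the choice and carry no test. The median was 10.7% over 822 in-frame coding pairs and 1.55% over 455 out-of-frame coding pairs. From 500 reads it was 1.02% and 0.545%, and from 2000 reads the order turned round, with 0.167% in-frame and 0.209% out-of-frame. In UTRs the median was 12.5% over 75 in-frame pairs and 9.78% over 99 out-of-frame pairs, and from 500 reads 3.20% over 16 and 1.56% over 34. The median over all pairs was 11.7% in-frame and 2.85% out-of-frame, and here too the order turned with depth: over pairs of at least 500 reads it was 1.08% and 0.598%, and over pairs of at least 2000 reads it was 0.199% in-frame and 0.220% out-of-frame. Without acceptors 3 bases apart the in-frame median was 4.74%, and from 500 reads it was 0.495%, below the 0.598% of out-of-frame pairs.

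From 500 reads upward, a lesser share of 10% stands far above the minimum of 5 reads. Among pairs of at least 500 reads, the lesser site held 10% or more in 46 of 253 in-frame coding pairs (18.2%) and in 1 of 248 out-of-frame coding pairs (0.403%). In UTRs it did so in 5 of 16 in-frame pairs (31.2%) and in 10 of 34 out-of-frame pairs (29.4%). The single out-of-frame coding pair was that of Entpd8. Of the 46 in-frame coding pairs, 12 were not acceptors 3 bases apart. Over all places together and without that class, 12 of 143 in-frame pairs of at least 500 reads had such a share (8.39%). Among out-of-frame pairs, 12 of 293 did (4.10%). The 10 out-of-frame UTR pairs all lay in 5′ UTRs, 3 of them at the same intron of C1s1. These thresholds were set after the data had been seen, and the counts carry no test.

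**Figure D3:**
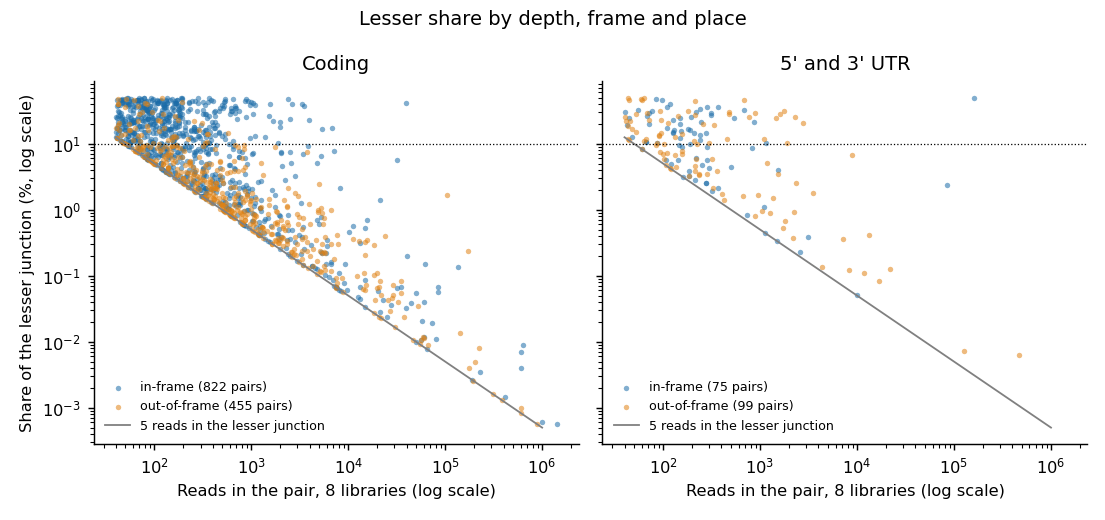
Share of the lesser junction (vertical axis, percent, log scale) against the reads of the pair over 8 libraries (horizontal axis, log scale), coding pairs left and UTR pairs right, in-frame pairs blue and out-of-frame pairs orange; the grey line marks 5 lesser reads and the dotted line 10%. Right of 500 reads the area above the dotted line holds 46 in-frame and 1 out-of-frame coding pair, and in UTRs 5 in-frame and 10 out-of-frame pairs.

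The pair with most lesser reads was in the 5′ UTR of Apoa2, a major apolipoprotein of high-density lipoprotein. Its first intron (chr1:173155253-173155417, plus strand; positions here and below are those of the greater intron in mm9) ended at 3 annotated acceptors. The first and second were used almost equally: the first, which adds CAG to the mRNA, held 78947 of 161677 reads (48.8%). By time its share was 49.0% at CT23, 45.7% at CT29, 48.0% at CT35, 50.7% at CT41, 45.5% at CT47, 50.9% at CT53, 50.2% at CT59 and 50.3% at CT65. All 8 values lay within 6 points of each other, with CT29 and CT47 lowest. At this depth the spread between libraries was 29.3 times the variance that counting alone gives. The third acceptor, 12 bases downstream of the second, held 2.37% of the 84741 reads of that pair, between 1.93% at CT53 and 3.61% at CT29, and the pairs share the middle junction.

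In coding sequence, an even use of both sites with many reads was found in intron 16 of 22 of Itih4, a protease inhibitor heavy chain secreted by the liver (chr14:31709957-31710711, plus strand). Its upstream acceptor, which adds CAG to the mRNA, held 16486 of 39644 reads (41.6%). By library that share ran from 40.1% at CT65 over a median of 42.0% to 43.1% at CT23. The spread between the libraries was 2.53 times the counting variance. Rarres2, which encodes the secreted signal chemerin (chr6:48520059-48520242, minus strand), kept its CAG in 37.9% of 3490 reads, between 34.65% and 40.96%. This lesser junction of Rarres2 is not in the deposited transcript models.

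Several genes that govern liver metabolism carried an in-frame tandem site; they were picked from the 46 pairs counted above after their values had been seen. Nr1h4 encodes the bile acid receptor FXR, and forms of it with and without a short insert next to the DNA-binding domain are known. Its donors 12 bases apart at intron 3 of 8 (chr10:88943373-88946128, minus strand) kept the 12 bases in 429 of 999 reads (42.9%, Wilson 95% interval 39.9 to 46.0%). By library that share ran from 35.1% at CT41 over a median of 44.2% to 51.4% at CT23. For Mlxipl (chr5:135609047-135609121, plus strand) the lesser acceptor, which skips CAG, held 1155 of 6784 reads (17.03%), between 14.0% at CT59 and 19.7% at CT47. For Abcc3, an organic anion exporter of the basolateral membrane (chr11:94221258-94222485, minus strand), it held 1038 of 2606 reads (39.8%), between 35.4% and 43.0%.

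Further pairs of this kind were found in signalling and acute phase genes. In Stat3, which transmits interleukin-6 signals, the donor that skips GTA held 12.9% of 1095 reads, between 10.6% and 16.7% by library. In Il6ra, a chain of the interleukin-6 receptor, the acceptor that keeps CAG held 34.7% of 510 reads. Cp, which encodes the copper carrier ceruloplasmin, kept CAG in 21.5% of 1999 reads, within 19.7 to 23.6% in all libraries. Pcbp2, an RNA-binding protein (chr15:102313720-102314584, plus strand), skipped 12 bases in 1348 of 3343 reads (40.3%), with a wider range of 29.4% at CT65 to 46.7% at CT35. Gtf2i, a general transcription factor (chr5:134719458-134719770, minus strand), kept 12 bases in 43.6% of 929 reads.

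At any depth, 150 of 636 out-of-frame pairs had a lesser share of 10% or more (23.6%). They were 58 of 455 coding pairs (12.7%), 40 of 78 in 5′ UTRs (51.3%) and 8 of 21 in 3′ UTRs. The rest were 5 of 11 in noncoding transcripts and 39 of 71 that were not placed. Median depth differed too, with 606 reads in coding pairs and 215 in 5′ UTRs, and its part was not tested. From 500 reads upward, 10 of the 12 out-of-frame pairs with such a share lay in 5′ UTRs. Acy1, an aminoacylase (chr9:106340069-106340463, minus strand), skipped CCAG in 310 of 681 reads (45.5%), and Sirt3, a mitochondrial deacetylase (chr7:148064045-148067661, minus strand), skipped 8 bases in 28.96% of 891 reads. Proc, which encodes the anticoagulant protein C, used the acceptor 4 bases upstream in 30.8% of 1757 reads. Among donors, C1s1, a complement protease (chr6:124491507-124492210, minus strand), kept GTAAG in 567 of 2268 reads (25%), Tmem205 kept 5 bases in 20.5% of 2797 reads, and Serping1, the inhibitor of that protease class, kept 5 bases in 6.72% of 8871 reads. Serpina3n skipped GTAG in 24.9% of 1473 reads, and Erg28 skipped GCAG in 11.9% of 1085 reads, between 1.45% at CT65 and 27.0% at CT29. Serpina3n has close paralogs whose reads cannot be separated here.

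The out-of-frame coding pairs with most lesser reads had low shares. Mup3, a major urinary protein, skipped GTCA at a donor in 1744 of 104622 reads (1.67%). Ttr, the thyroid hormone carrier transthyretin, used an acceptor 4 bases downstream in 404 of 172270 reads (0.235%). Rnasek skipped GTTG in 8.98% of 1760 reads. The in-frame pair of Mup7 skipped AAG in 5.59% of 31825 reads, between 3.83% and 6.30% by library. Mup genes are near-identical copies, so that their pairs are uncertain.

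Among out-of-frame pairs of 200 or more reads, the 3 with the highest shares were Acy1, above, and Gnmt and Slco1b2, with 45% of 280 and 44.9% of 506 reads. Gnmt is a glycine methyltransferase and Slco1b2 an organic anion uptake transporter. Neither of their junctions was annotated, so no place in the transcript was given to them. Gnmt averaged 1097 RPKM, beside 494 RPKM for Itih4, whose pair held 39644 reads. Slco1b2 averaged 99.6 RPKM, beside 15.1 RPKM for Acy1, whose pair held 681 reads. The shares of Gnmt and Slco1b2 thus divide few reads for genes of this level and are not shares of all their transcripts.

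**Figure D4:**
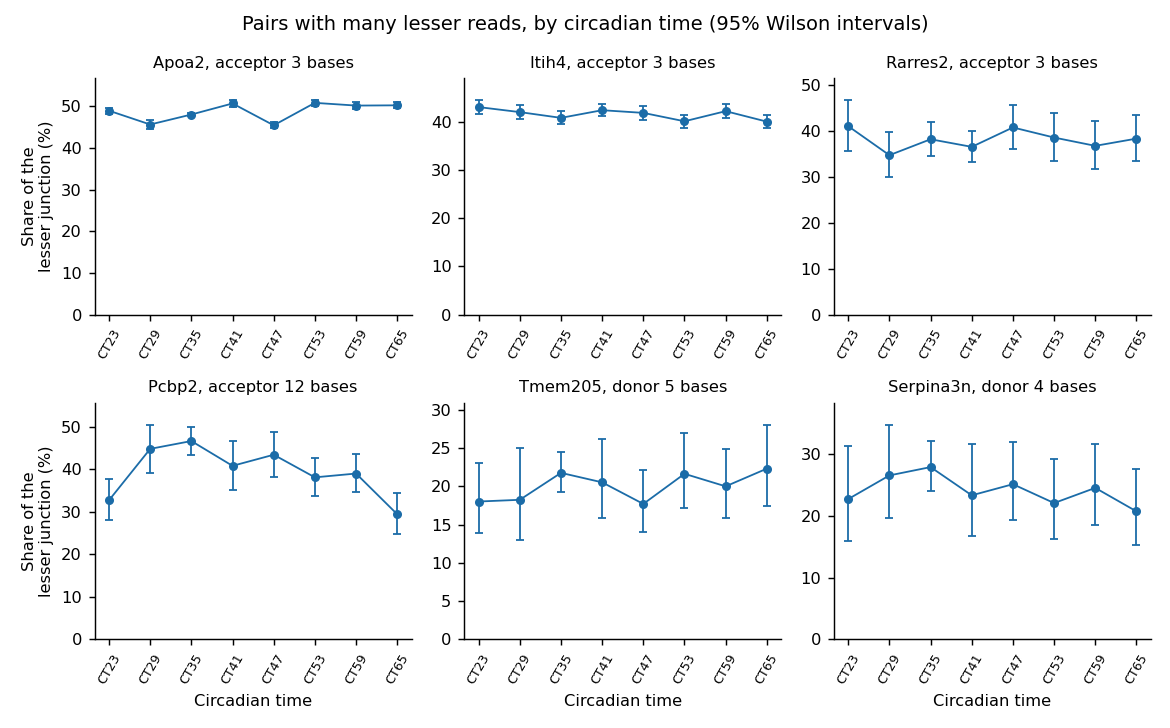
Share of the lesser junction (vertical axes, percent, each from 0) at the 8 circadian times (horizontal axes), 1 library each, with 95% Wilson intervals, for 6 pairs with many lesser reads. Apoa2 stays between 45.5 and 50.9% and Itih4 between 40.1 and 43.1%, while Pcbp2 runs from 29.4% at CT65 to 46.7% at CT35.

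Shares were tested for a 24-h component. For each pair, the odds of the lesser against the greater junction within a library were modelled by a 24-h curve. With edgeR's quasi-likelihood test and Benjamini-Hochberg adjustment over all 15225 pairs, 0 tandem pairs were called at an adjusted p under 0.05, beside a background of 0.0722% of all pairs (11 pairs). At an unadjusted p under 0.05 there were 41 tandem pairs (2.56%), against 5.77% of all pairs. The smallest adjusted p of a tandem pair was 0.351. DESeq2's likelihood ratio test called 0 tandem pairs, with 11 at an unadjusted p under 0.05 (background 2.05%). Limma on the log2 odds called 2, Slc29a1 and Entpd8, beside a background of 0.69%. At an unadjusted limma p under 0.05 there were 115 tandem pairs (7.17%), against 10.6% of all pairs. With 1 pool per time, the p-values describe scatter of pools about a fitted curve, not variation between animals.

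Slc29a1, which encodes the nucleoside transporter ENT1, was the clearest candidate. The pair was a tandem donor 6 bases apart at intron 7 of 11 in coding sequence (chr17:45725336-45725950, minus strand), and both junctions were annotated. The donor that keeps GTAAAG held 42.9% of 140 reads at CT23, 22.1% of 136 at CT29, 34.8% of 423 at CT35, 54.9% of 206 at CT41, 47.6% of 189 at CT47, 31.8% of 154 at CT53, 35.5% of 138 at CT59 and 49.1% of 171 at CT65. The share was highest in both libraries of phase CT17, next in both of CT23, then in both of CT11, and lowest in both of CT5. The 2 days thus gave the same order of phases, in a pair named for its 24-h fit over both days. This order is therefore no separate support for a 24-h component. Its Wilson interval was 15.9 to 29.7% at CT29 and 48.0 to 61.5% at CT41. The peak-to-trough difference of the log2 odds was 1.63 (SE 0.23) with limma, with a peak at CT18.5. Limma's adjusted p was 4.86e-06 and stayed under 0.05 in 8 of 8 fits that left out a library (largest 0.000904, without CT41). EdgeR gave a log2 difference of 1.67, an unadjusted p of 0.00944 and an adjusted p of 0.631, so its call differed. The level of Slc29a1 itself averaged 64.9 RPKM. Its own 24-h component had a log2 peak-to-trough difference of 0.70 and a peak at CT17.5, with a limma adjusted p of 0.285. Over all genes tested the median difference was 0.43. Whether the level and the share moved together was not tested.

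Entpd8, an ecto-nucleotidase, was the single out-of-frame coding pair with a lesser share of 10% or more among those of at least 500 reads, at intron 6 of 9 (chr2:24939255-24939344, plus strand). The lesser donor, which is not annotated and skips GTTG, held 85 of 582 reads (14.6%). Its share was 12.5% of 72 reads at CT23, 7.35% at CT29, 14.1% at CT35, 27.9% at CT41, 29.6% at CT47, 6.90% at CT53, 0% at CT59 (0 of 47 reads, Wilson upper bound 7.56%) and 26.2% at CT65. The phase CT17 was high and CT5 low on both days, while the 2 libraries of CT23 differed, and so did those of CT11. This pair, too, was named for its 24-h fit over both days. The peak-to-trough log2 difference was 2.23 (SE 0.51, limma adjusted p = 0.0292), and the call was lost in 2 of 8 fits that left out a library, with 0.0975 without CT41. EdgeR's adjusted p was 0.417.

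The other tandem pairs of smallest edgeR p rested on few lesser reads: Cfi (acceptors 4 apart), Serpinc1 and Fads1 had 5 each. Their edgeR adjusted p-values were 0.351, 0.524 and 0.535. The reads of Serpinc1 fell in 3 libraries and those of Cfi and Fads1 in 2 each, CT41 and CT65.

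A difference between the second and the first day was tested within phases. EdgeR called 0 tandem pairs, beside a background of 0.00657% (1 of all pairs), with 22 tandem pairs at an unadjusted p under 0.05 (1.37%, background 2.42%). DESeq2 called 0, with 11 at an unadjusted p under 0.05 (background 1.13%). Limma called 1, beside a background of 0.0263%, with 48 at an unadjusted p under 0.05 (background 4.93%). That pair was the tandem acceptor 3 bases apart at intron 6 of 13 of Cfi, the protease complement factor I (chr3:129561742-129564883, plus strand). The acceptor that skips AAG held 10.9%, 11.9%, 12.0% and 7.14% at CT47, CT53, CT59 and CT65, against 5.56%, 5.71%, 5.37% and 5.21% at CT23, CT29, CT35 and CT41. The shares of the 2 days did not overlap as point values, in a pair that was named because limma called it for this difference. At CT65 the Wilson interval was 4.38 to 11.4%, which covers the shares of the first day. The log2 odds differed by 1.06 (SE 0.19, limma adjusted p = 0.00181), while edgeR gave 1.02 with an unadjusted p of 0.0329. The limma call held in 4 of 8 fits that left out a library, and without CT35 its adjusted p was 0.402.

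**Figure D5:**
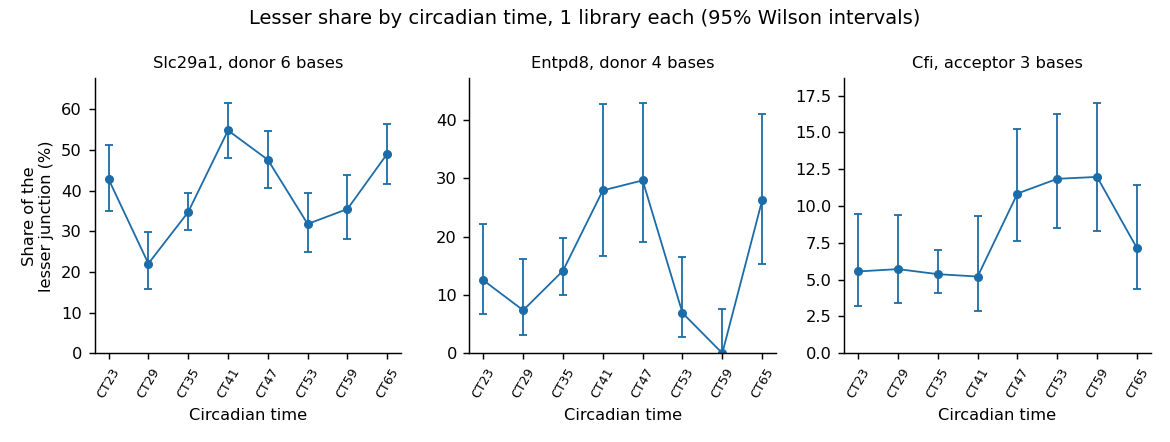
Share of the lesser junction (vertical axes, percent, each from 0) at the 8 circadian times (horizontal axes), 1 library each, with 95% Wilson intervals, for the 3 pairs called by limma and not by edgeR. Slc29a1 peaks at CT41 and CT65, Entpd8 is high at CT41, CT47 and CT65, and Cfi is higher at CT47, CT53, CT59 and CT65 than at the 4 earlier times.

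Over the 105 pairs with at least 100 lesser reads and at least 100 reads on each day, the median absolute difference between the shares of the 2 days was 1.79 points, and the differences, second minus first day, ran from -10.8 to 12.5 points. Many of these shares are low, which limits the size a difference can have. The variance between libraries was a median 1.47 times the counting variance over 106 pairs with at least 100 lesser reads, and it was over 2 times in 23. Over the 740 pairs with at least 20 reads in every library, the median share was 0.951% at CT23, 0.649% at CT29, 1.13% at CT35, 1.02% at CT41, 0.885% at CT47, 0.952% at CT53, 0.980% at CT59 and 0.913% at CT65. CT35, the deepest, was highest and CT29, the shallowest, lowest in this set. Subsets had other orders: over 381 in-frame pairs CT53 was lowest (1.79%) and CT41 and CT59 were highest (2.63%), and over 202 acceptor pairs 3 bases apart CT35 was lowest (5.13%) and CT59 highest (6.05%).

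Genes that choose or read splice sites were themselves examined. Of 38 genes for splice-site recognition, 0 were called for a 24-h component of expression by limma, beside a background of 1.27% of 10990 genes. At an unadjusted p under 0.05 there were 3 of the 38, beside 1570 of the 10990 genes. Of 19 tested genes of nonsense-mediated decay, 0 were called (2 at an unadjusted p under 0.05), and Magohb was too low to be tested. With the transcript of most reads in place of the one with the highest mean RPKM, both counts stayed at 0, beside 2.49% of all genes. Their median log2 peak-to-trough differences were 0.31 and 0.40, against 0.43 over all genes.

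These lists held 10 tandem pairs of their own, in 9 genes. Gspt1, the translation termination factor eRF3a (chr16:11239193-11240758, minus strand), skipped TAG in 191 of 518 reads (36.9%), between 25% at CT29 and 45.9% at CT41. Rbm8a, a core protein of the exon junction complex (chr3:96434285-96434399, plus strand), skipped AAG in 65 of 158 reads (41.1%), with few reads per library. U2af2, the large subunit of U2AF (chr7:5026830-5027069, plus strand), kept 12 bases at a donor in 68 of 221 reads (30.8%). Sf1, the branch point binding protein, had both kinds at intron 10 of 12: the donor 4 bases downstream held 9.57% of 846 reads and the acceptor 5 bases downstream 8.27% of 834 reads, and these pairs share their greater junction. Snrpa, a protein of the U1 particle, and Dhx38, a helicase of the second step, had lesser shares of 31.6% of 76 reads and 33.3% of 81 reads. Puf60, Upf2 and Dhx15 had 7, 6 and 5 lesser reads. None of the 10 was called by edgeR or limma, and the size of change that their 54 to 846 reads could have shown was not computed.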

How the data were processed

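Polyadenylated RNA was measured in 8 libraries, 1 per time. The deposited junction tables hold counts of reads across each junction as whole numbers, named high-quality junctions from RUM in the track lines, per the file headers. The deposited transcript tables hold a lower and an upper value per transcript, with no unit named. They are called RPKM here, a unit inferred from the values, and the lower one was used. The build is mm9, per the submitters' processing notes, and coordinates follow it. No version or settings of RUM appear in the labels or headers. The count of reads across junctions carries no molecular identifiers, so intervals cover counting error only.

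An intron ran from the BED start plus 51 to the BED end minus 50. Strand and names came from deposited transcript models that hold either junction as an intron or, where none does, the shared end. Regions and bases came from GENCODE M21 transcripts matched to these models by ID and exon lengths. Shares were tested with edgeR 4.0.16 (R 4.3.3, quasi-likelihood F-test, common dispersion, library intercepts, cosine and sine of 24 h or day with phase as a block), on counts and adjusted over all 15225 pairs. Limma 3.58.1 (log2 odds with 0.5 added, weights from the counts) and DESeq2 1.42.0 were alternatives, with other read minimums and each library left out. Expression was tested with limma on log2(RPKM + 0.5), keeping genes that reached 1 RPKM in 2 or more libraries. Such fold changes understate those of low genes. All tests left 5 residual degrees of freedom or fewer. The share test was tried on simulated data in which only pairs with at least 100 lesser reads were changed. Of the tandem pairs, 106 had that many, so the trial does not show what the test could find in the others. Wilson intervals are at 95% (SciPy 1.17.1).

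The members and gene lists were chosen with earlier results of these data known. Named were the 5 pairs of smallest p per test, the 4 with most lesser reads in each of 6 classes, all pairs in genes of the 2 lists, the 3 of highest share among in-frame and among out-of-frame pairs of 200 or more reads, and, after values were seen, pairs called by limma and coding pairs of 500 or more reads with a share of 10% or more. Sequences of pairs on chromosome 18 are not shown.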

Additional observations from a re-analysis of the deposited data

How the results depend on the processing

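Called tandem pairs numbered 0 for the 24-h component with edgeR under every setting tried, namely both dispersions, 3 read minimums, 8 fits that each left out a library, and day as a covariate, and 0 with DESeq2. Limma called 2, and 1 to 9 when a library was left out. Over pairs of any distance edgeR called 11, or 12 with trended dispersion, 0 with 100 reads per pair, 2 with 20 reads per pair, 4 with day as a covariate and 1 (without CT35) to 30 (without CT59) with a library left out, DESeq2 called 0, and limma 105 (82 to 269 with a library left out). For the second against the first day, tandem calls were 0 with edgeR under every setting tried and with DESeq2, and 1 with limma (0 to 2 with a library left out). Over pairs of any distance they were 1 with edgeR (0 to 1 with a library left out, 0 with 20 reads per pair), 0 with DESeq2 and 4 with limma (1 to 59). The cause of these differences was not tested. Beside Slc29a1, Entpd8 and Cfi, limma called 6 named pairs when 1 library was left out, among them Mup7 and the Apoa2 pair 12 apart, none of them with all libraries.

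The number of pairs fell to 501 in-frame and 257 out-of-frame with 100 reads per pair and 10 in the lesser, and to 469 and 140 where both junctions were annotated, by the stricter selection itself. The median lesser share was 1.08% in-frame and 0.598% out-of-frame from 500 reads, 0.199% and 0.220% from 2000 reads, and 4.74% in-frame without acceptors 3 apart. Calls for expression over all genes were 140, 25 without a filter, 261 with the transcript of most reads and 44 to 143 with a library left out, and 0 on both lists throughout. Trended dispersion, limma with a library left out, the depth limits of 500 and 2000 reads, the set without acceptors 3 apart and the transcript of most reads were chosen after seeing the data. No paired analysis was possible by replicate number because the labels carry none, and the comparison of days had the clock phase as a block. Depth limits all shares: in a pair of 40 reads, a site used in few transcripts does not reach 5 reads.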
